A study of Mus musculus with 12 samples.

Results

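Untreated cerebellar granule neurons (CGNs) of Ifnb-/- mice were compared with untreated CGNs of Ifnb+/+ mice. The 6 arrays labelled untreated were taken by genotype and treatment from the 12 arrays of the study, 3 per genotype, and 18193 genes were compared. Cultures of both genotypes came from cerebella of B10.RIII pups 7 days old and were lysed on day 3 of culture. The other 6 cultures had received 100 U/ml recombinant IFN-β (rIFN-β) for 24 hr. The methods count heterozygous littermates as wild type as well, whereas the labels of these arrays give Ifnb+/+. Cultures were made in triplicate and the litters are not stated, so p-values cover only the spread between these cultures, which may be technical. Ifnb1 itself did not check the labels, with a log2 level of 2.72 ± 0.10 (SD, n = 3) in Ifnb+/+ and 2.70 ± 0.20 (SD, n = 3) in Ifnb-/-, close to the floor of the scale in either genotype.

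IFN-β is a type I interferon. It binds a receptor made of Ifnar1 and Ifnar2, and the signal through JAK kinases and STAT factors turns on interferon-stimulated genes, among them antiviral effectors and genes of MHC class I presentation. In the absence of infection, low constitutive IFN-β signaling is known to keep some of these genes at a basal level in many cell types. Granule neurons are the small glutamatergic neurons of the cerebellar cortex, and their cultures can also hold some glia. The study describes its CGN cultures as highly pure. The comparison asks what the loss of endogenous IFN-β changes in such cultures at rest.

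In untreated Ifnb-/- cultures, 1 gene of the interferon-stimulated list, several genes known from microglia and macrophages, and the lysosomal protease Ctsd were lower. A small group of neuronal genes was higher. Of 18193 genes, 21 passed an adjusted p of 0.05 (0.115%), of which 6 were higher (0.033%) and 15 lower (0.0824%) in Ifnb-/-. After centring the arrays on their medians, 17 were higher and 12 lower, and 17 of the 21 genes were called again. With a limma p below 0.05 before adjustment there were 1528 higher genes (8.4%) and 2331 lower ones (12.8%). The log2 levels of the 2 groups did not overlap, in the sense that every Ifnb-/- array lay above or below every Ifnb+/+ array, in 1846 genes that were higher (10.1%) and 3302 that were lower (18.1%). At 1.5-fold with a limma p below 0.05 before adjustment there were 653 higher genes (3.59%) and 435 lower ones (2.39%). This balance turned to 162 higher and 247 lower with the methods' t-test in place of limma, and to 139 higher and 210 lower without Ifnb+/+ replicate 1. The median log2 fold change of all genes, Ifnb-/- minus Ifnb+/+, was -0.09, and every fold change below is given on this scale.

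The arrays of the 2 genotypes differed in how much they varied. Ifnb-/- arrays correlated across genes at 0.997 to 0.998 and Ifnb+/+ arrays at 0.971 to 0.993, and the SD was larger in Ifnb+/+ for 77.8% of genes. Replicate 2 of Ifnb+/+ correlated at 0.995 with the Ifnb-/- arrays and at 0.971 with replicate 1 of its own group. Replicates 1 and 2 of Ifnb+/+ lay at least 1 log2 unit apart in 1495 genes, and replicate 3 lay between them in 1489 of these (99.6%), against 69.1% of all genes. Replicate 1 was the Ifnb+/+ array farthest from the Ifnb-/- mean in 71.7% of genes and replicate 2 the nearest in 60.9%. Among the 21 called genes none had replicates 1 and 2 at least 1 unit apart, and the largest gap was 0.79. Counts over lists are given with all arrays and, where it matters, without replicate 1 or 2. Leaving out an array can only keep or raise a count of genes without overlap, so such counts are read only beside all genes. Counts by the unadjusted p can fall, and without replicate 1 they were 576 higher and 1002 lower over all genes.

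**Figure D1:**
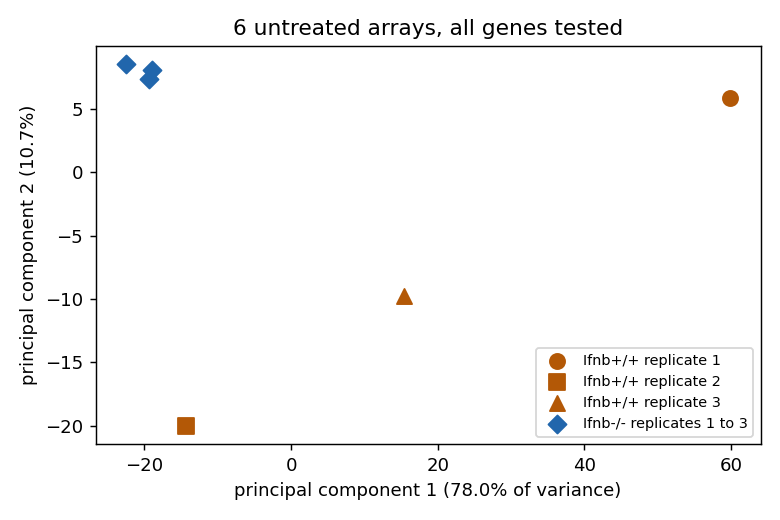
Principal components of the 6 untreated arrays over all genes tested, with the share of variance of each component on its axis and 1 point per array. The 3 Ifnb-/- arrays lie together between -22.5 and -19.0 on component 1, whereas the Ifnb+/+ arrays run from -14.4 for replicate 2 over 15.4 for replicate 3 to 59.9 for replicate 1.

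Which genes were called depended on the arrays in the fit. Without Ifnb+/+ replicate 1, 21 genes were called and 13 of them were among the original 21. Without replicate 2 the count was 3846 and included all 21, and without replicate 3 it was 4, all among the 21. Leaving out Ifnb-/- replicate 1 or 3 left 1 call each, Fcgr1 and Ifi27l2a, and leaving out replicate 2 left 0 calls in limma, with 2097 genes at an unadjusted p under 0.05. All 21 genes kept an unadjusted p under 0.01 in each of these fits. Their direction could not change, since their groups did not overlap with all arrays. With 3 cultures per group, an exact permutation test of a single gene cannot go below p = 0.1.

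Ifi27l2a, a gene of the interferon-stimulated list, fell the most of the called genes. It read 5.79, 5.96 and 5.55 in Ifnb+/+ replicates 1 to 3 and 4.14, 4.00 and 4.46 in Ifnb-/- (log2 fold change -1.57, SE 0.17, adjusted p = 0.0115). All Ifnb-/- arrays were more than 1 unit below the lowest Ifnb+/+ array. It was the only called member of the 49 interferon-stimulated genes measured. Its mean changed little with rIFN-β, from 5.77 to 5.72 in Ifnb+/+ and from 4.20 to 4.30 in Ifnb-/-. Usp18 and Rsad2 of the same list rose from 4.42 to 11.22 and from 5.63 to 12.18 in Ifnb+/+.

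Fcgr1, Trem2, Adam8, Cd37, Hk3 and Slc37a2 are best known from microglia, macrophages and other myeloid or lymphoid cells. Fcgr1, the high-affinity receptor for IgG, read 6.92, 6.59 and 6.65 in Ifnb+/+ and 5.73, 5.06 and 5.48 in Ifnb-/- (log2 fold change -1.30, SE 0.16, adjusted p = 0.0115). Trem2, a lipid-sensing receptor of microglia, read 6.79, 6.75 and 6.49 against 5.75, 5.54 and 5.67 (-1.03, SE 0.14, adjusted p = 0.0164). Adam8, a membrane metalloprotease of myeloid cells, read 7.09, 7.44 and 7.38 against 6.27, 6.20 and 6.22 (-1.07, SE 0.14, adjusted p = 0.0137). In each of these genes the Ifnb+/+ array nearest to the knockout was still well above the highest Ifnb-/- array. Cd37, a tetraspanin of leukocytes, read 5.16, 5.06 and 5.22 against 4.45, 4.42 and 4.38 (-0.72, SE 0.11, adjusted p = 0.0304). Hk3, a hexokinase of myeloid cells, read 6.52, 6.45 and 6.21 against 5.74, 5.58 and 5.63 (-0.75, SE 0.12, adjusted p = 0.0485). Slc37a2, a sugar-phosphate exchanger of macrophages, read 5.46, 5.50 and 5.29 against 4.40, 4.42 and 4.41 (-1.005, SE 0.12, adjusted p = 0.0115). The Ifnb-/- arrays of Slc37a2 were nearly identical, and none of these 3 genes had overlapping groups. In RNA of whole cultures, fewer cells of a type and less RNA per cell cannot be told apart.

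Ctsd, Plin2, Hmox1, Rnh1 and Ndufs5 serve degradation, lipid storage, redox balance, RNA protection and respiration. Ctsd, the lysosomal aspartic protease cathepsin D, read 10.72, 10.57 and 10.58 in Ifnb+/+ and 9.94, 9.92 and 9.93 in Ifnb-/- (-0.70, SE 0.10, adjusted p = 0.0284). Plin2, a coat protein of lipid droplets, read 8.25, 8.64 and 8.51 against 7.56, 7.52 and 7.51 (-0.94, SE 0.13, adjusted p = 0.0159). Hmox1, which degrades heme, read 7.71, 8.26 and 7.92 against 7.02, 6.98 and 7.04 (-0.95, SE 0.15, adjusted p = 0.0485). For Plin2 and Hmox1 it was replicate 1 of Ifnb+/+ that lay nearest to the knockout, whereas over all genes it was most often replicate 2. Rnh1, the inhibitor of pancreatic-type ribonucleases, read 8.40, 8.07 and 8.22 against 7.36, 7.32 and 7.49 (-0.84, SE 0.13, adjusted p = 0.0304). Ndufs5, a subunit of respiratory complex I, read 9.08, 9.24 and 9.12 against 8.18, 8.12 and 8.39 (-0.92, SE 0.13, adjusted p = 0.0263). It was the only called member of the 34 complex I genes measured.

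Patj, Rgma and Tmem69 completed the 15 lower genes. Patj, a scaffold of cell polarity at tight junctions, read 5.64, 5.33 and 5.25 in Ifnb+/+ and 4.32, 4.27 and 4.19 in Ifnb-/- (-1.15, SE 0.14, adjusted p = 0.0115). Its 3 other probe sets had the same sign, between -0.92 and -0.17. Rgma, a repulsive guidance molecule of growing axons, read 6.43, 5.93 and 6.18 against 5.02, 5.20 and 5.15 (-1.06, SE 0.16, adjusted p = 0.0304). Tmem69 read 6.43, 6.57 and 6.01 against 5.38, 5.49 and 5.33 (-0.93, SE 0.14, adjusted p = 0.0304). Other probe sets differed more for some called genes. The other probe set of Cd37 had a fold change of 0.04 and that of Trem2 one of -0.10, and the 3 of Tmem69 ran from -0.54 to 0.06. With the mean of the probe sets of a gene, 15 of the 21 genes were called, without Cd37, Tmem69, Trem2, Cacna1c, Car10 and Snapc3. Groups did not overlap in any of the 21 called genes.

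The 6 higher genes included 4 with roles in neurons, Synpr, Pcp4, Cacna1c and Car10. Synpr, the synaptic vesicle protein synaptoporin, read 8.29, 8.53 and 8.40 in Ifnb+/+ and 9.35, 9.35 and 9.19 in Ifnb-/- (0.89, SE 0.12, adjusted p = 0.0165). Pcp4, a small calmodulin-binding protein, read 9.94, 10.04 and 9.89 against 10.80, 10.75 and 10.84 (0.84, SE 0.11, adjusted p = 0.0115). In both, the gap between the groups was wider than the range within either. Cacna1c, the pore of an L-type calcium channel, read 6.15, 6.64 and 6.59 against 7.33, 7.52 and 7.48 (0.98, SE 0.16, adjusted p = 0.0485). Car10, a carbonic anhydrase-related protein without enzyme activity that binds neurexins, read 7.63, 8.43 and 8.12 against 8.999, 9.19 and 9.07 (1.02, SE 0.17, adjusted p = 0.0485). Replicate 1 of Ifnb+/+ was the lowest array of both Cacna1c and Car10, and without it their fold changes were 0.83 (adjusted p = 0.081) and 0.81 (adjusted p = 0.0475).

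Snapc3 and Ptpn22 were the other 2 higher genes. Snapc3, a subunit of the complex that activates small nuclear RNA genes, read 6.53, 7.03 and 6.81 in Ifnb+/+ and 8.004, 7.94 and 8.08 in Ifnb-/- (1.22, SE 0.15, adjusted p = 0.0115). Its 3 other probe sets ranged from -0.43 to 1.17, and 2 had the same sign. Ptpn22, a tyrosine phosphatase of lymphocytes, read 2.94, 3.24 and 3.06 against 3.74, 3.69 and 4.06, close to the floor of the scale (0.75, SE 0.12, adjusted p = 0.0485). Over the called genes, 12 of 15 other probe sets had the sign of the probe set used, against 74.1% of the other probe sets of all genes. In all 6 higher genes, replicate 2 was the Ifnb+/+ array nearest to the Ifnb-/- mean.

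**Figure D2:**
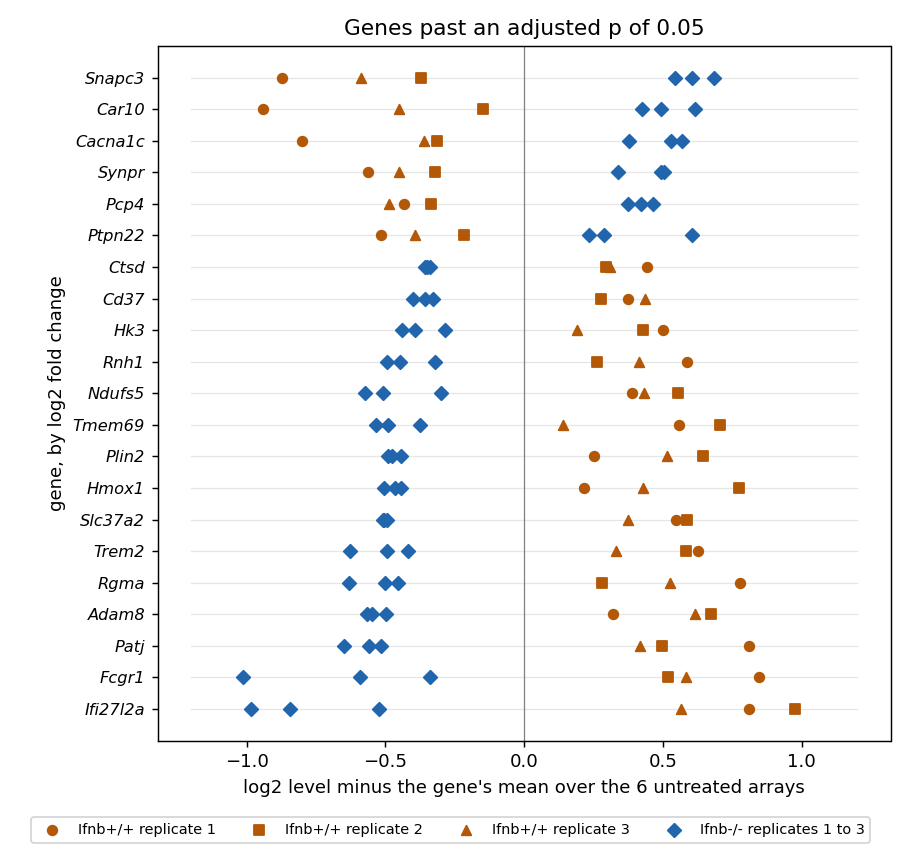
Log2 level of the 21 called genes in each untreated array, minus the mean of the gene over the 6 arrays. Blue diamonds are the 3 Ifnb-/- arrays and orange symbols the Ifnb+/+ replicates, and in no gene do the 2 groups overlap.

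The largest fold changes among higher genes lay in genes that were not called. Of the 10 largest higher genes with an unadjusted p under 0.01 and no overlap, none passed the adjusted threshold, and in 10 of 10 replicate 1 was the lowest and replicate 2 the highest Ifnb+/+ array. Robo2, a receptor for Slit guidance cues, read 5.16, 7.01 and 6.45 in Ifnb+/+ and 7.68, 7.93 and 7.75 in Ifnb-/- (1.57, adjusted p = 0.158), and its fold change was 1.05 without replicate 1. Mndal, an interferon-inducible DNA-binding protein, read 7.22, 8.85 and 8.18 against 9.50, 9.53 and 9.48 (1.42, adjusted p = 0.175), and 0.98 without replicate 1. Epha5, a receptor for ephrins, differed from these in that its Ifnb+/+ arrays stayed close, at 4.63, 4.80 and 4.78 against 6.19, 6.40 and 6.31 (1.56, adjusted p = 0.123). All 3 other probe sets of Epha5 had the same sign, from 0.09 to 1.39. The 10 largest lower genes included 3 called ones, Ifi27l2a, Fcgr1 and Patj, and replicate 1 was highest and replicate 2 lowest in 6 of the 10.

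Interferon-stimulated genes were lower as a list. Of 49 measured, 43 had a fold change below 0 with a median of -0.42, against -0.09 for all genes. By the unadjusted p, below 0.05, 10 of 49 were lower and 0 higher, beside 12.8% and 8.4% of all genes. Groups did not overlap in 25 lower (51%) and 0 higher, beside 18.1% and 10.1% of all genes. Without replicate 1 of Ifnb+/+ the count was 27 of 49 (55.1%) with a median of -0.44, beside 21.4% of all genes, and without replicate 2 it was 32 of 49 (65.3%), beside 40.3%. In all 3 sets of arrays the share of the list without overlap exceeded that of all genes. Without replicate 1 the unadjusted p gave 8 lower and 0 higher.

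Apart from Ifi27l2a, no interferon-stimulated gene passed the adjusted threshold. Usp18, the protease that removes ISG15 and damps the receptor, read 5.09, 3.52 and 4.63 in Ifnb+/+ and 2.69, 2.62 and 2.94 in Ifnb-/- (-1.67, SE 0.34, adjusted p = 0.0991). Rsad2, the antiviral enzyme viperin, read 5.16, 6.06 and 5.66 against 4.30, 4.49 and 4.25 (-1.28, adjusted p = 0.165). The Ifnb+/+ arrays spread over more than 0.8 units in both genes, in opposite orders for replicates 1 and 2. Bst2, tetherin, and Ifit1, which binds viral RNA, are given as examples chosen after their values were seen. Bst2 read 5.68, 5.60 and 5.67 against 4.66, 4.77 and 4.81 (-0.90, adjusted p = 0.192), and Ifit1 4.06, 3.68 and 3.66 against 2.65, 2.69 and 2.92 (-1.05, adjusted p = 0.185).

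Genes of MHC class I presentation read lower in 16 of 17 measured, with a median of -0.50. None was called, and 5 were lower at an unadjusted p under 0.05, beside 12.8% of all genes. At that threshold 2 were lower without replicate 1 of Ifnb+/+. With all arrays, groups did not overlap in 10 lower (58.8%) and 0 higher, beside 18.1% and 10.1% of all genes. H2-K1, a classical class I heavy chain, read 9.25, 8.98 and 9.09 in Ifnb+/+ and 7.90, 7.72 and 7.93 in Ifnb-/- (-1.26, adjusted p = 0.128). H2-D1, another, read 8.93, 9.10 and 8.97 against 8.17, 8.08 and 8.17 (-0.86, adjusted p = 0.154). In both genes the 3 arrays of each genotype lay closer to each other than to any array of the other genotype. The receptor and induction pathway stood nearer to all genes, with a median of -0.10 over 23 genes and no overlap in 4 lower and 1 higher. Ifnar1 read 7.40 ± 0.04 (SD, n = 3) in Ifnb+/+ and 7.39 ± 0.03 (SD, n = 3) in Ifnb-/-, and Ifnar2 read 6.75 ± 0.03 (SD, n = 3) and 6.52 ± 0.03 (SD, n = 3).

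Promoters of the interferon and lysosomal genes are shown for the motifs through which these groups are known to be activated. RefSeq promoters (GRCm38.p6, 250 bases before to 50 after the start) of 27025 genes were searched on both strands for GAAANNGAA (the interferon-stimulated response element), TCACGTGA (the core of the lysosomal CLEAR element bound by Tfeb) and TGACNNNGC (the antioxidant response element bound by Nrf2). GAAANNGAA was present in 21 of 37 interferon-stimulated genes with a promoter (56.8%) against 9.76% of all genes. TCACGTGA was present in 6 of 41 lysosomal genes (14.6%) against 1.12%, and TGACNNNGC in 5 of 12 antioxidant genes (41.7%) against 14%. Of the 18 called genes with a promoter, 2 held the first motif, 1 the second and 7 the third. Ifi27l2a, Hmox1 and Rgma had no promoter in the set. The first motif was in Tmem69 and Rnh1, neither of the interferon-stimulated list. The third was in Snapc3, Cacna1c and Synpr, which were higher, and in Patj, Ndufs5, Rnh1 and Ctsd, which were lower. The called gene with the CLEAR core was Ctsd (chr7:142387778-142388077, minus strand). Rsad2 (chr12:26456403-26456702, minus strand) and Gla (chrX:134600956-134601255, minus strand) are shown as uncalled examples of the interferon and lysosomal lists. Capitals mark the motif, which in Rsad2 reads on the other strand, and a match is a description of the letters only.
Ctsd: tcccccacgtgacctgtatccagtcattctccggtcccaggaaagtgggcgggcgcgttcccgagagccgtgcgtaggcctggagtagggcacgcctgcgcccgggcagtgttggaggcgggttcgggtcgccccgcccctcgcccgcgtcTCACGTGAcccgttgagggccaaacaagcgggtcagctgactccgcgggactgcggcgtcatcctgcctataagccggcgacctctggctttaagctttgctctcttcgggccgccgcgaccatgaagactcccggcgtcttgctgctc
Rsad2: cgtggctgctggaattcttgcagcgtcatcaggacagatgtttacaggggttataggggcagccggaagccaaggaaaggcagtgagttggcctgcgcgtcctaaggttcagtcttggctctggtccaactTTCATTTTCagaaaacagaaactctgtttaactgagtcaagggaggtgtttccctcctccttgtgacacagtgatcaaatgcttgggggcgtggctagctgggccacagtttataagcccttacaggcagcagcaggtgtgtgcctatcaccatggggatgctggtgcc
Gla: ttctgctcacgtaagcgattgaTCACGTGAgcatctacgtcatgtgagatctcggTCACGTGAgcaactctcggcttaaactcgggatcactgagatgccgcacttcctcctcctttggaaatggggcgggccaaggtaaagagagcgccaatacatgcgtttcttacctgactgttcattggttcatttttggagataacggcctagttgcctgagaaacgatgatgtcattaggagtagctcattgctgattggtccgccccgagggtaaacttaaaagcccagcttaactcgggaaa
Counted from the gene start, the motif began at -99 in Ctsd, at -119 in Rsad2, and at -228 and -195 in Gla.

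Complement and Fc receptor genes were lower in 12 of 12 measured, with a median of -0.60. Besides Fcgr1, C1qb, a chain of the complement initiator C1q, read 8.90, 8.37 and 8.59 in Ifnb+/+ and 7.74, 7.66 and 7.79 in Ifnb-/- (-0.89, adjusted p = 0.0736). Groups did not overlap in 7 of 12 (58.3%), beside 18.1% of all genes, and in 9 of 12 (75%) without replicate 1, beside 21.4%. C1qa and C1qc, its partner chains, also did not overlap, at -0.78 (adjusted p = 0.146) and -0.81 (adjusted p = 0.154). They were named after their values were seen.

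Microglial markers differed in how far they separated the genotypes. Of 27 measured, 2 were called lower (Fcgr1 and Trem2). By the unadjusted p 11 were lower and 0 higher, beside 12.8% and 8.4% of all genes. Groups did not overlap in 12 lower (44.4%) and 0 higher, beside 18.1% and 10.1% of all genes, with a median of -0.38. The summed linear level of the list was 5614, 8260 and 6656 in Ifnb+/+ and 5941, 5286 and 5759 in Ifnb-/-, a ratio of 0.827 with overlapping groups. The homeostatic markers Cx3cr1, P2ry12 and Tmem119 lay close to the floor of the scale in both genotypes, and their groups overlapped. Mean log2 levels in Ifnb+/+ and Ifnb-/- were 3.45 and 3.04 for Cx3cr1, 2.72 and 2.61 for P2ry12, and 4.19 and 4.07 for Tmem119. Markers shared with other macrophages were well measured. Cd68 read 8.96, 9.15 and 8.97 against 8.25, 8.24 and 8.30, whereas Tyrobp read 9.13, 9.77 and 9.36 against 9.25, 9.02 and 9.25 and overlapped. Of the other defining markers, Csf1r (means 8.39 and 7.92), Laptm5 (8.31 and 7.79) and C1qa (8.84 and 8.06) were lower without overlap. Aif1 overlapped, at means of 6.23 and 6.17. The part of microglial number in the lower levels was not tested. Genes of activated and lipid-associated microglia had a median of -0.31 over 21 measured, with no overlap in 8 lower (38.1%) and 0 higher. Replicate 2 of Ifnb+/+ stood highest in this list, with a list median of 0.51 relative to the mean of each gene, against 0.01 in replicate 1.

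Markers of other cell types were summed in the same way. Summed markers of granule neurons were 23618, 27008 and 26526 in Ifnb+/+ and 31232, 33993 and 31592 in Ifnb-/-, a ratio of 1.25 without overlap. Of the defining markers of granule neurons, Neurod1 was strong in both genotypes, at 11.32, 11.98 and 11.82 against 12.28, 12.50 and 12.30. Mean log2 levels in Ifnb+/+ and Ifnb-/- were 12.41 and 12.72 for Zic1, 10.12 and 11.01 for Snap25, and only 5.46 and 6.18 for Gabra6. Sums of astrocyte, oligodendrocyte and granule cell progenitor markers overlapped, at ratios of 1.03, 1.01 and 1.01. Meningeal fibroblast markers summed to 2571 to 3003 in Ifnb+/+ and 2415 to 2455 in Ifnb-/-, and endothelial markers, 11 of 16 under a log2 level of 4, to 441 to 460 and 371 to 404. Gfap, an astrocyte filament, read 10.25, 7.29 and 9.31 in Ifnb+/+ and 7.46, 7.59 and 7.66 in Ifnb-/-, so that replicate 2 was at the knockout level and replicates 1 and 3 above it. Sums of GABAergic interneuron markers showed the opposite order, at 1790, 4001 and 3112 in Ifnb+/+ and 2973 to 3082 in Ifnb-/-. The part of cell composition in the results was not tested.

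**Figure D3:**
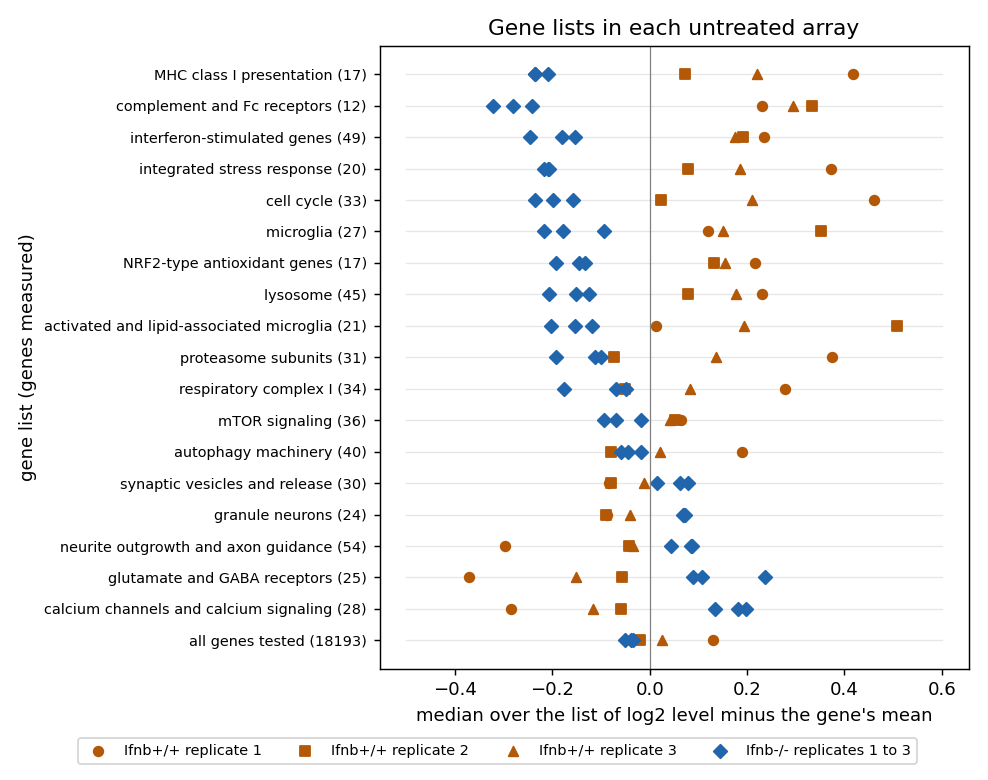
Median over each gene list, in each untreated array, of the log2 level minus the mean of the gene over the 6 arrays, with the number of genes measured in brackets. Most lists separate all Ifnb+/+ from all Ifnb-/- arrays, and so does the bottom row of all genes tested, by a smaller margin (-0.02 to 0.13 in Ifnb+/+ and -0.05 to -0.03 in Ifnb-/-).

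Lysosomal genes, which encode the hydrolases and membrane proteins of the degradative organelle, were lower in 40 of 45 measured. Besides Ctsd none was called. By the unadjusted p, below 0.05, 22 were lower and 1 higher, beside 12.8% and 8.4% of all genes. Groups did not overlap in 23 lower (51.1%) and 1 higher, beside 18.1% and 10.1% of all genes, and the median was -0.33. Without replicate 1 of Ifnb+/+ they did not overlap in 28 of 45 lower (62.2%), beside 21.4% of all genes. The unadjusted p then gave 16 lower and 0 higher, and the median was -0.27. Gla, the alpha-galactosidase that is deficient in Fabry disease, read 6.57, 6.51 and 6.34 in Ifnb+/+ and 5.69, 5.55 and 5.58 in Ifnb-/- (-0.86, adjusted p = 0.0629). The transcription factor Tfeb, chosen after its values were seen, read 5.19, 4.85 and 5.0 against 4.84, 4.81 and 4.83 (-0.18, adjusted p = 0.36).

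The autophagy machinery, which delivers cargo to lysosomes, had a median of -0.09 over 40 genes, equal to that of all genes. Groups did not overlap in 5 lower (12.5%) and 3 higher (7.5%), beside 18.1% and 10.1% of all genes. By the unadjusted p, below 0.05, 6 of 40 were higher and 4 lower, beside 8.4% and 12.8% of all genes. Sqstm1, the cargo receptor p62, was among the lower ones, at 10.65, 10.34 and 10.50 in Ifnb+/+ and 10.05, 9.99 and 10.14 in Ifnb-/- (-0.44, adjusted p = 0.156). Genes of mTOR signaling, the pathway that sets growth against autophagy, had a median of -0.15 over 36, with no overlap in 7 lower (19.4%) and 2 higher (5.56%).

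Genes of the integrated stress response, which Atf4 and related factors induce when translation is restrained, were lower in 15 of 20. None was called, and 12 were lower and 1 higher by the unadjusted p, beside 12.8% and 8.4% of all genes. Groups did not overlap in 13 lower (65%) and 2 higher (10%), beside 18.1% and 10.1% of all genes, with a median of -0.43. Atf3, a stress-induced transcription factor, read 6.40, 6.69 and 6.61 in Ifnb+/+ and 5.78, 5.93 and 5.95 in Ifnb-/- (-0.68, adjusted p = 0.0525). Without replicate 1 of Ifnb+/+ groups did not overlap in 14 lower of 20 (70%), beside 21.4% of all genes, with a median of -0.27. The unadjusted p then gave 10 lower and 0 higher. Antioxidant genes of the Nrf2 type had a median of -0.35 over 17, with Hmox1 called and no overlap in 8 lower (47.1%) and 1 higher (5.88%).

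Respiratory chain, proteasome, ribosome and cell cycle lists had medians below 0, as did all genes at -0.09. Complex I genes had a median of -0.22 over 34 with no overlap in 12 lower (35.3%) and 2 higher, and complexes II to V -0.21 over 37 with 13 lower (35.1%) and 2 higher, beside 18.1% lower and 10.1% higher for all genes. By the unadjusted p 8 complex I genes were lower and 3 higher, beside 12.8% and 8.4% of all genes. Without replicate 1 of Ifnb+/+ these counts were 1 and 1, and the complex I median was -0.12. Cox7c, a subunit of cytochrome c oxidase, read 3.45, 5.07 and 4.30 in Ifnb+/+ and 5.39, 5.36 and 5.41 in Ifnb-/- (1.11, adjusted p = 0.154), and Atp5j, a subunit of ATP synthase, had a fold change of 0.54 (adjusted p = 0.185). Proteasome subunits had a median of -0.27 over 31 with no overlap in 14 lower (45.2%) and 1 higher, and of -0.17 without replicate 1. Of these subunits, 10 were lower by the unadjusted p with all arrays and 1 without replicate 1. Cytosolic ribosomal proteins had a median of -0.10 over 36, close to that of all genes, with no overlap in 13 lower (36.1%) and 0 higher. For complex I the list medians of the arrays, relative to the mean of each gene, were 0.28, -0.05 and 0.08 in Ifnb+/+ and -0.07, -0.18 and -0.05 in Ifnb-/-, so that replicate 2 lay at the level of the knockout. Cell cycle genes had a median of -0.40 over 33 with no overlap in 18 lower (54.5%) and 1 higher, and of -0.28 without replicate 1. Of these genes, 7 were lower by the unadjusted p with all arrays and 2 without replicate 1. Rps6, a ribosomal protein and target of mTOR signaling, read 6.34, 5.97 and 5.83 against 4.97, 4.90 and 5.06 (-1.07, adjusted p = 0.0525). All 3 Ifnb-/- arrays of Rps6 lay at least 0.7 units below the lowest Ifnb+/+ array.

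**Figure D4:**
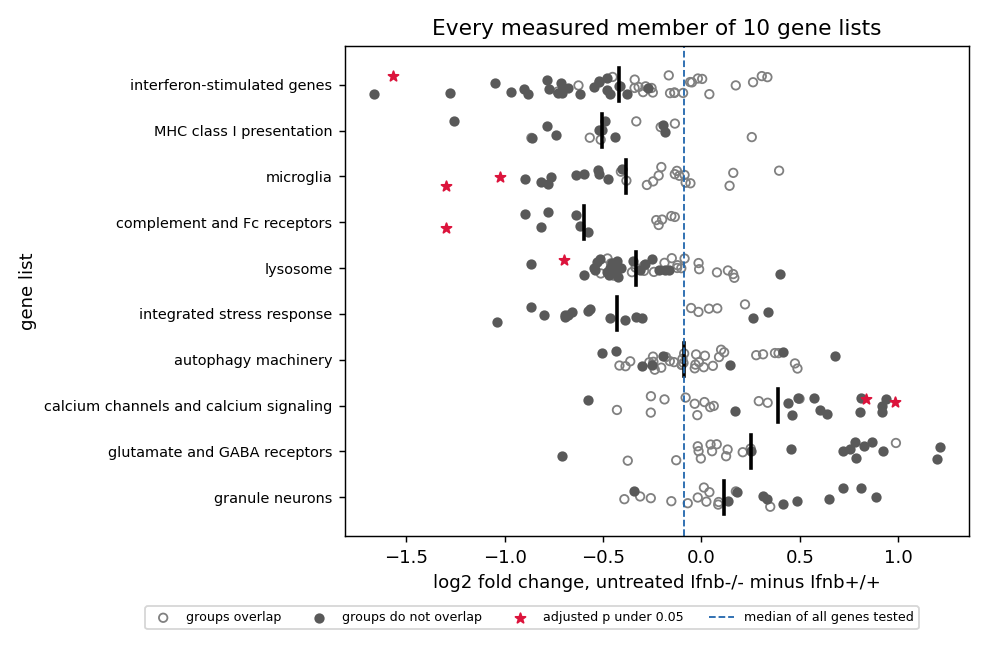
Log2 fold change, untreated Ifnb-/- minus Ifnb+/+, of every measured member of 10 gene lists. Filled points are genes whose groups do not overlap, stars genes at an adjusted p under 0.05, black bars list medians, and the dashed line is the median of all genes at -0.09.

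Calcium genes had a median above that of all genes. Of 28 channels, pumps, kinases and calmodulin partners, 2 were called higher (Cacna1c and Pcp4). By the unadjusted p 13 were higher and 1 lower, beside 8.4% and 12.8% of all genes. Groups did not overlap in 14 higher (50%) and 1 lower, beside 10.1% and 18.1% of all genes, and the median was 0.39. Without replicate 1 of Ifnb+/+ the median was 0.18, with no overlap in 14 higher (50%), beside 13.1% of all genes. The unadjusted p then gave 12 higher and 1 lower. Cacna1e, an R-type channel chosen after its values were seen, read 7.38, 8.27 and 7.97 in Ifnb+/+ and 8.67, 8.76 and 8.94 in Ifnb-/- (0.92, adjusted p = 0.14). Ppp3ca, the calcineurin catalytic subunit, chosen in the same way, read 8.45, 9.38 and 8.96 against 9.70, 9.78 and 9.72 (0.81, adjusted p = 0.15).

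Receptors for glutamate and GABA were higher in 19 of 25 measured, with a median of 0.25 and none called. Groups did not overlap in 11 higher (44%) and 1 lower, beside 10.1% and 18.1% of all genes. By the unadjusted p 10 were higher and 1 lower, beside 8.4% and 12.8% of all genes. Without replicate 1 of Ifnb+/+ these counts were 7 and 1. Groups then did not overlap in 13 higher (52%), beside 13.1% of all genes, with a median of 0.31. Gabra6, a GABA-A receptor subunit that granule neurons turn on as they mature, read 5.47, 5.45 and 5.48 in Ifnb+/+ and 6.10, 6.11 and 6.33 in Ifnb-/- (0.72, adjusted p = 0.147), with the Ifnb+/+ arrays almost level. It was named as a defining marker of granule neurons. Granule neuron markers as a list had a median of 0.11 over 24, with no overlap in 10 higher (41.7%) and 1 lower.

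Genes of neurites and synapses had medians closer to 0. Neurite outgrowth and axon guidance had a median of 0.14 over 54 genes. The unadjusted p gave 11 higher and 1 lower, beside 8.4% and 12.8% of all genes. Groups did not overlap in 19 higher (35.2%) and 5 lower, beside 10.1% and 18.1% of all genes. The median of this list was 0.07 without replicate 1 of Ifnb+/+ and 0.23 without replicate 2, where groups did not overlap in 28 higher and 12 lower. Synaptic vesicle genes had a median of 0.09 over 30, with Synpr called and no overlap in 11 higher (36.7%) and 1 lower. Without replicate 2 of Ifnb+/+ these counts were 14 and 12 and the median 0.04, with 20.5% of all genes higher and 40.3% lower without overlap. Snap25, a SNARE protein of vesicle fusion, read 9.77, 10.47 and 10.13 in Ifnb+/+ and 10.94, 11.12 and 10.97 in Ifnb-/- (0.88, adjusted p = 0.128). Neurotrophin signaling had a median of 0.07 over 24, which was 0.15 without replicate 1 and -0.00045 without replicate 2, so that it gave no stable direction. Genes of familial Parkinson's disease had a median of -0.05 over 13, with no overlap in 5 higher (38.5%) and 3 lower (23.1%), and none was called.

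Gene length moved with the fold change. Groups did not overlap and were higher in 4.05% of genes under 5 kb and in 22.9% of genes over 200 kb, and the median fold change ran from -0.13 to 0.04. The median difference between Ifnb+/+ replicates 1 and 2 ran from 0.23 to -0.15 over the same bins, so that replicate 1 stood apart from replicate 2 in the same direction in which Ifnb+/+ stood apart from Ifnb-/-. Cacna1c spans 610 kb, Car10 505 kb and Synpr 331 kb, and Patj, which was lower, spans 324 kb. The part of gene length in the neuronal lists was not tested.

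Of the 21 called genes, 5 lay on chromosome 4, which carries Ifnb1 and 6.03% of the genes with a position. Chromosome 7 held 5 as well (Adam8, Cd37, Ctsd, Rgma and Rnh1), among 1420 genes against 1095 on chromosome 4. Those on chromosome 4 were Snapc3, Plin2, Patj, Tmem69 and Ndufs5, which stood 18 and 8 measured genes before Ifnb1 and 40, 167 and 259 after it in chromosome order. Rps6 stood 6 genes before it. A window of 100 measured genes on either side of Ifnb1 was set after the values were seen. In it 3 of 200 genes were called, against 16 of 17050 on other chromosomes. Groups did not overlap in 31.0% of its genes, against 28.2% on other chromosomes. They did not overlap in the same direction both untreated and with rIFN-β in 4.5%, against 1.14%. The flanking segment of the knockout and the loss of Ifnb1 cannot be told apart in these arrays. Of the 5 called genes on chromosome 4, 4 did not overlap in the same direction in the rIFN-β arrays, against 4 of the 16 called genes elsewhere.

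The 6 arrays with rIFN-β give the same genotypes in other cultures. Their spread entered the estimate by which the 21 genes were called, so they are not independent of that choice. With only the untreated arrays in the fit, 7 of the 21 were called. Of the 21 called genes, 13 had the same sign in the rIFN-β arrays, 6 of 6 higher and 7 of 15 lower, against 39.3% of all genes. Groups did not overlap in the same direction in 8, namely Snapc3, Ptpn22, Car10, Ifi27l2a, Patj, Fcgr1, Ndufs5 and Tmem69, where groups of all genes did not overlap in 4.64% higher and 3.47% lower. With rIFN-β, 2 of the 21 passed an adjusted p of 0.05, against 0.0605% of all genes. Ifi27l2a read 5.69, 5.84 and 5.63 in treated Ifnb+/+ and 4.32, 4.02 and 4.56 in treated Ifnb-/- (-1.42, SE 0.17, adjusted p = 0.0221), close to its untreated levels. Ndufs5 read 9.23, 9.54 and 9.41 against 8.54, 8.30 and 8.72 (-0.88, SE 0.13, adjusted p = 0.0449). For these genes the difference between the treated and untreated contrasts was 0.15 (adjusted p = 0.743) and 0.04 (adjusted p = 0.914).

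Adam8, Trem2, Slc37a2 and Ctsd, all lower in untreated Ifnb-/-, were higher in Ifnb-/- with rIFN-β. With treatment Trem2 read 5.19, 4.95 and 5.39 in Ifnb+/+ and 5.70, 5.93 and 6.01 in Ifnb-/-, a genotype difference of 0.71, and Adam8 read 5.56, 5.15 and 5.12 against 5.88, 5.88 and 6.07, a difference of 0.67. Slc37a2 and Ctsd differed by 0.24 and 0.37. The interaction of genotype and rIFN-β passed an adjusted p of 0.05 in these 4 genes and in no other (0.022% of all genes). In Ifnb+/+ the 4 genes read lower with rIFN-β than without it, whereas in Ifnb-/- their levels with and without rIFN-β lay closer together. Without any 1 of the untreated Ifnb-/- arrays 0 of 21 passed for the interaction in limma, although all 4 stayed at an unadjusted p under 0.01 in every such fit.

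**Figure D5:**
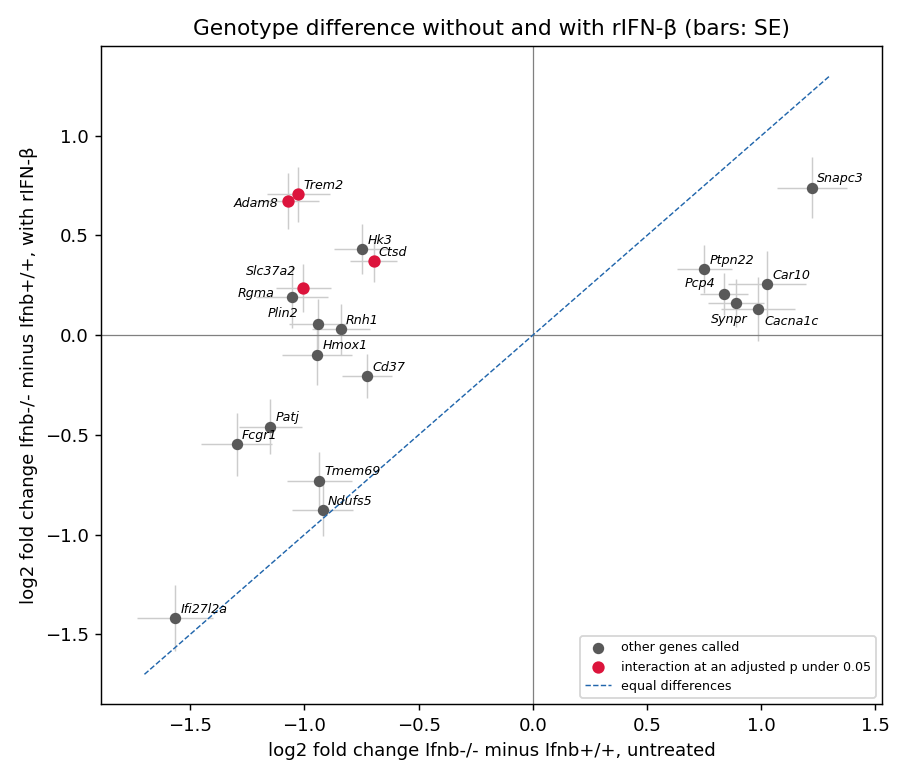
Log2 fold change of the 21 called genes, Ifnb-/- minus Ifnb+/+, in untreated cultures (horizontal axis) and with rIFN-β (vertical axis), with SE bars. Genes near the dashed line, such as Ifi27l2a and Ndufs5, have fold changes of similar size in both, and the 4 red genes lie on the opposite side of 0 with rIFN-β and passed the interaction test.

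List medians in the rIFN-β arrays went separate ways. Interferon-stimulated genes had a median genotype difference of -1.30 with rIFN-β and MHC class I genes -1.26, both below their untreated medians. Microglial markers had a median of -0.32, against -0.38 untreated, although Trem2 among them was 0.71, and genes of activated and lipid-associated microglia one of 0.07, against -0.31 untreated. Complement, lysosomal and integrated stress response genes had medians of 0.08, -0.01 and 0.01 there, beside 0.03 for all genes, and calcium genes one of 0.12.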

How the data were processed

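RNA of 12 CGN cultures was hybridized to Affymetrix whole-genome mouse arrays, 1 per culture. Quantile normalization and RMA were run by the authors, and the deposited values are log2 intensities of 45037 probe sets. Such values compress differences near background. Words such as strong or close to the floor describe the reading of a probe set. Marker sums add linear levels over genes, so the brightest probe sets weigh most in them. Depth does not apply to arrays, and the number of arrays limits the precision. Of the probe sets, 34945 named 1 gene, 932 several and 9160 none in the array annotation. Each of 18193 genes was read from the brightest, by mean over the 12 arrays, of the probe sets that name it alone.

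Groups were taken from the genotype and treatment labels. A model of 4 group means over 12 arrays (8 residual degrees of freedom) was fitted with limma 3.58.1 in R 4.3.3 with empirical Bayes moderation, and p-values were adjusted by Benjamini-Hochberg over all genes. Genes at an adjusted p under 0.05 were called. Simulated arrays with known changes were used to test the fit. Lists (34, with 819 distinct genes measured) were described by counts and medians, with no set test. Genes named were those called, the 10 largest fold changes per direction at an unadjusted p under 0.01 without overlap and with a mean of at least 5 in the higher group, up to 2 members per list with the smallest unadjusted p, and Ifnb1, Ifnar1, Ifnar2 and Tox. Tox, a thymocyte transcription factor, read 3.73 ± 0.17 (SD, n = 3) in Ifnb+/+ and 3.34 ± 0.03 (SD, n = 3) in Ifnb-/-. The lists, rules and genes were chosen with earlier results of these data known.

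Alternatives were median centring, a second quantile normalization, the mean of probe sets, probe sets taken singly, a level filter, only the untreated arrays, array weights, a trend and robust variance, a block for replicate number, other thresholds, the methods' t-test, and each array left out. The alternatives of the interaction and the counts of lists without an Ifnb+/+ array were added after seeing the data. Promoter sequences were those of RefSeq, and 18 of the 21 called genes had one.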

Additional observations from a re-analysis of the deposited data

Results flagged for a closer look

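The genotype difference in 4 of the genes called in untreated cultures differed between untreated and rIFN-β cultures by the interaction test over all genes. The difference with rIFN-β minus that without, on the log2 scale, was 1.74 for Adam8 (adjusted p = 0.0120), 1.73 for Trem2 (adjusted p = 0.0120), 1.24 for Slc37a2 (adjusted p = 0.0414) and 1.07 for Ctsd (adjusted p = 0.0414). With groups of 3 arrays, single arrays were not tested as outliers.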

How the results depend on the processing

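Of the 21 genes called (6 higher, 15 lower), counts moved as follows. Array weights, which gave Ifnb+/+ replicate 3 a weight of 7.24 against 0.249 and 0.411 for replicates 1 and 2, called 7946 genes (2893 higher, 5053 lower). The methods' t-test called 2206 genes at its unadjusted threshold (682 higher, 1524 lower) and 6 after Benjamini-Hochberg (1 higher, 5 lower), none of them among the 21. Every probe set on its own gave 32 calls, 11 of them higher, an adjusted p of 0.1 gave 80 (30 higher, 50 lower), and median centring gave 17 higher. Leaving out each array in turn gave 0 to 3846 calls, 0 to 1646 higher and 0 to 2200 lower. At 1.5-fold with p below 0.05 before adjustment (1088 genes, 653 higher and 435 lower), centring gave 997 higher and 225 lower, a second quantile normalization 270 lower, the t-test 409 (162 higher, 247 lower), or 1, 1 and 0 after Benjamini-Hochberg (2206 genes at an unadjusted p under 0.05), and a 1.4-fold cutoff 1869 with 916 lower. Leaving out each array gave 349 to 2990, 139 to 1491 higher and 210 to 1499 lower. The interaction was called for 4 genes, for 0 with the replicate block (all 4 at an unadjusted p under 0.01) and for 0 to 12 with each array left out. Same-numbered untreated arrays of the 2 genotypes deviated together little (correlations 0.06, 0.13 and -0.02). With 3 arrays per group this cannot exclude that the numbers pair the cultures. Untreated and rIFN-β arrays were not compared in this way. With a replicate block 16 genes were called, 13 of them among the 21. The cause of these changes was not tested. Only the untreated arrays gave 19 calls, 7 of them among the 21. For single named genes no alternative reversed a direction, but many could not. The trend and robust variance, the block, only the untreated arrays, the t-test and leaving out an rIFN-β array keep the main fold change. Leaving out an untreated array cannot reverse a gene whose groups do not overlap. Called genes stayed called in 261 comparisons and were not called in 175. Of 34 list medians 25 were below 0, a count that no alternative moved by over 1.5 times. The median of erythroid markers could not be computed with the level filter.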
